A study of Homo sapiens with 12 samples.

Results

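The PIM kinases PIM1, PIM2 and PIM3 and 7 genes of JAK-STAT signalling (SOCS1, SOCS2, SOCS3, JAK1, STAT3, IL6ST and OSMR) were followed in SMARCA4 knockout (KO) and control breast cancer cells. These 10 genes were chosen by name, with earlier results of these data known, and all 10 were among the 11529 gene rows of the expression table. RNA-seq had been run on MDA-MB-468, an established triple-negative breast cancer (TNBC) line of the basal/stem-like (SL) subtype, and on MDA-MB-231, a TNBC line of the mesenchymal-like (MSL) subtype. Each line had 3 control samples, labelled wild type, and 3 samples in which SMARCA4, the motor (ATPase) of SWI/SNF chromatin remodelling complexes, was targeted by CRISPR/Cas9. The KO cells carried a lentiviral Cas9 and guide RNA vector and were puromycin-selected pools, not single clones. The labels do not say whether the control cells carried an empty or nontargeting vector. For its protein blots the study describes controls with a nontargeting CRISPR/Cas9 vector, apart from parental wild-type cells. Nothing in the labels says that the 3 samples of a group came from separate cultures, so the p-values measure the spread between these samples, which may be technical. The labels also give each sample a p number that they do not explain. It runs from 10 to 12 in both MDA-MB-231 groups, from 26 to 28 in control MDA-MB-468 and from 25 to 27 in KO MDA-MB-468.

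SMARCA4 itself was checked first. It was listed at 96.9, 97.4 and 101 FPKM (fragments per kilobase of transcript, scaled to the mapped fragments of the sample) in control MDA-MB-468 and at 39.7, 43.5 and 47.7 FPKM in KO samples. In MDA-MB-231 the controls had 67.5, 71.5 and 67.0 FPKM and the KO samples 21.0, 23.9 and 22.6 FPKM. The KO means were therefore 44.3% and 32.7% of control, and no KO sample overlapped a control sample in either line. The log2 FC was -1.16 (adjusted p = 0.014) in MDA-MB-468, where the adjusted p was between 0.057 and 0.075 without control 2, control 3 or KO 2, and -1.57 (adjusted p = 0.0014) in MDA-MB-231. These are RNA levels and do not measure the protein that was left. By western blot the study reported a considerable loss of SMARCA4 protein after KO in both lines. It also reported altered guide target sequences in MDA-MB-468. In these bulk samples of pools, fewer cells of a type and less RNA per cell cannot be told apart. The relative fall was larger in MDA-MB-231 (difference between the lines 0.41 on the log2 scale, adjusted p = 0.027, at most 0.067 with 1 sample left out), and the part of this remaining SMARCA4 RNA in the differences between the lines was not tested. In control cells, all 6 listed basal epithelial markers had higher means in MDA-MB-468, among them EPCAM (302 against 14.0 FPKM) and CDH1 (44.5 against 0.27 FPKM). Of the 4 mesenchymal markers measured, 3 had higher means in MDA-MB-231, among them VIM (2.61 against 1309 FPKM) and AXL (0.05 against 249 FPKM), while CD44 went the other way (890 against 482 FPKM). CDH1 rose by 0.54 on the log2 scale in KO MDA-MB-231 (adjusted p = 0.044), where VIM differed by -0.39 (adjusted p = 0.031). CDH1 stayed low there, at 0.12, 0.27 and 0.41 FPKM in controls and 1.01, 0.89 and 0.62 FPKM after KO. In MDA-MB-468 the mesenchymal marker CAV1 had 15.04, 20.7 and 22.3 FPKM in controls and 33.9, 63.4 and 70.2 FPKM after KO, without overlap (2.89 times the control mean, log2 FC 1.44, adjusted p = 0.062), while VIM (1.43 times) and the basal marker KRT6B (1.72 times) overlapped. Of the other basal markers in KO MDA-MB-468, EPCAM was at 93.6% and KRT18 at 119% of the control mean, both without overlap. CDH1 (85.2%), KRT5 (126%) and EGFR (112%) overlapped there, as did the mesenchymal marker CD44 (92.0%). The part of these marker differences in the results below was not tested. The 12 samples had between 11293 and 11362 rows above 0, and their sequencing depth is unknown because the table holds no counts.

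In JAK-STAT signalling, a cytokine binds a receptor at the cell surface, receptor-bound Janus kinases phosphorylate STAT transcription factors, and these enter the nucleus and switch on target genes. The SOCS genes are among those targets and encode inhibitors that act back on the receptor or the kinase, so their RNA is often read as a trace of recent signalling. The PIM genes, also STAT targets, encode serine/threonine kinases that are active as soon as they are made and that promote cell survival and growth. In breast cancer cells, cytokines of the IL6 family, which signal through IL6ST and partners such as OSMR, are known as activators of STAT3.

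After SMARCA4 KO, PIM1 and SOCS2 rose in MDA-MB-468 and SOCS2 fell in MDA-MB-231. A gene was called here when limma's Benjamini-Hochberg adjusted p over all 11529 rows was below 0.05 and the log2 fold change (log2 FC) of log2(FPKM + 1) was beyond 0.5. In MDA-MB-468, 2 of the 10 genes were called higher and 0 lower, against 1.33% and 0.815% of all rows. The study of these samples had already reported PIM1 as raised in KO MDA-MB-468, so this count is a description. In MDA-MB-231, 0 were called higher and 1 lower, against 2.39% and 1.31% of all rows. At an unadjusted p below 0.05 the counts were 4 of 10 in MDA-MB-468 and 5 of 10 in the other line, beside 25.1% and 31.2% of all rows. The median log2 FC of the 10 genes was 0.21 in MDA-MB-468, where the median of all rows was 0.016, and -0.10 in MDA-MB-231, where it was -0.0064. KO and control samples did not overlap for 4 of the 10 genes in MDA-MB-468 and for 5 in the MDA-MB-231 samples, beside 31.0% and 36.0% of all rows.

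**Figure D1:**
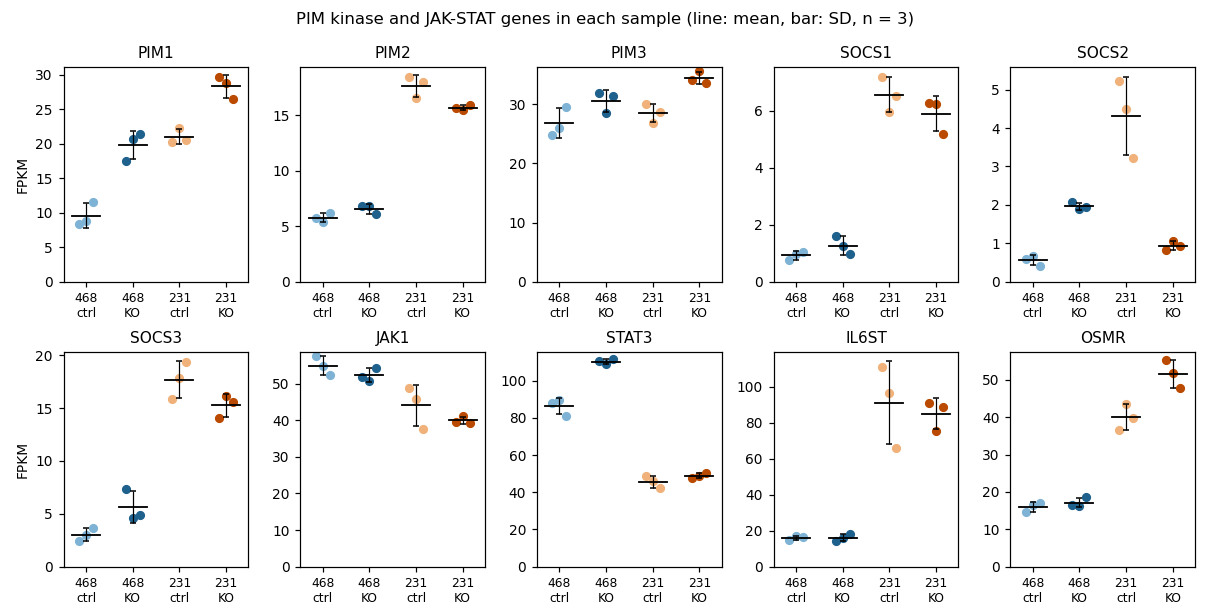
FPKM of the 10 genes in each of the 12 samples (one panel per gene, linear axis from 0; points are samples, the horizontal line is the mean and the bar the SD, n = 3 per group; the axis gives the number of the MDA-MB line, and ctrl stands for control). SOCS2 lies at 0.42 to 0.67 FPKM in control MDA-MB-468 and at 1.89 to 2.07 after KO, while it goes from 3.22 to 5.23 FPKM in control MDA-MB-231 to 0.84 to 1.06 after KO.

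SOCS2 encodes a suppressor of cytokine signalling best known for limiting the growth hormone receptor. In MDA-MB-468 it was listed at 0.60, 0.67 and 0.42 FPKM in controls and at 2.07, 1.89 and 1.95 FPKM in KO samples. All KO samples were above all controls, by 3.50-fold in the means. The log2 FC was 0.93 (SE 0.07, adjusted p = 0.014). In MDA-MB-231 the controls had 5.23, 4.49 and 3.22 FPKM and the KO samples 0.84, 1.06 and 0.92 FPKM. Every KO sample was below every control here, and the KO mean was 21.8% of the control mean (log2 FC -1.44, SE 0.15, adjusted p = 0.0097). Because 1 is added to each FPKM before the logarithm, these log2 values understate the change of a gene at such low levels. The KO effects of the lines differed by 2.37 on the log2 scale (SE 0.17, adjusted p = 2.7e-05), and this difference passed the threshold in all 17 alternative settings in which it was computed. The order of the lines was thereby turned round. Control MDA-MB-231 had 7.66 times the SOCS2 level of control MDA-MB-468, whereas all 3 KO MDA-MB-231 samples were below all 3 KO MDA-MB-468 samples.

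Single samples carried weight in the calls made within a line. The SOCS2 call in MDA-MB-468 ended without control 1 (adjusted p = 0.051), control 2 (adjusted p = 0.070), KO 2 (adjusted p = 0.075) or KO 3 (adjusted p = 0.061), and the call in MDA-MB-231 ended without KO 2 (adjusted p = 0.051). The fold changes themselves stayed between 0.86 and 0.98 and between -1.59 and -1.31 when any 1 sample was left out. The exons of SOCS2 overlap those of SOCS2-AS1 on the opposite strand, and since the strand setting used in counting is not given in the sources used here, reads of these 2 genes may not be told apart.

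SOCS3, a classical STAT3 target whose product binds IL6ST and blocks JAK kinases, had 2.41, 3.0 and 3.62 FPKM in control MDA-MB-468 and 7.38, 4.61 and 4.88 FPKM in KO samples. All KO samples lay above the controls, with KO 1 well above the other two. The log2 FC was 0.71 (SE 0.19, 95% interval 0.24 to 1.18), but its adjusted p of 0.093 missed the threshold. It was 0.011 when all 12 samples shared one estimate of the spread, but SOCS3 stayed uncalled in 15 of the 16 alternative settings. With 1 sample left out, the log2 FC ranged from 0.53 to 0.82 and limma's adjusted p from 0.094 to 0.22. In MDA-MB-231 SOCS3 had 15.8, 17.8 and 19.3 FPKM in controls and 14.1, 16.1 and 15.6 FPKM in KO samples, which overlapped (log2 FC -0.20, SE 0.09, adjusted p = 0.20). The difference between the lines, 0.91 (SE 0.21), had an adjusted p of 0.019 and stayed past the threshold in all 18 alternative settings (adjusted p at most 0.047).

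SOCS1, an inhibitor of interferon and JAK signalling, was near the lower end of the table in MDA-MB-468. It had 0.75, 0.99 and 1.05 FPKM in controls against 1.61, 1.24 and 0.96 FPKM after KO, and the groups overlapped (log2 FC 0.23, adjusted p = 0.30). In MDA-MB-231 it had 7.19, 5.96 and 6.52 FPKM in controls against 6.27, 6.23 and 5.18 FPKM after KO, again overlapping (log2 FC -0.13, adjusted p = 0.38). Its KO effects were not shown to differ between the lines (0.36, adjusted p = 0.14).

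PIM1, the kinase of this family most often linked to cytokine signalling, was listed at 8.41, 8.78 and 11.6 FPKM in control MDA-MB-468 and at 17.5, 20.7 and 21.4 FPKM in KO samples. The KO samples were all above the controls, with 2.07 times their mean. The log2 FC was 0.98 (SE 0.14, 95% interval 0.64 to 1.32, adjusted p = 0.032). In MDA-MB-231 the controls, at 20.2, 22.3 and 20.6 FPKM, overlapped the KO MDA-MB-468 samples. KO MDA-MB-231 samples had 29.7, 28.8 and 26.5 FPKM, all above their controls, with an adjusted p of 0.022 but a log2 FC of 0.41 (SE 0.06), under the fold limit of 0.5. The KO effects of the lines differed by 0.57 (SE 0.16, adjusted p = 0.033).

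**Figure D2:**
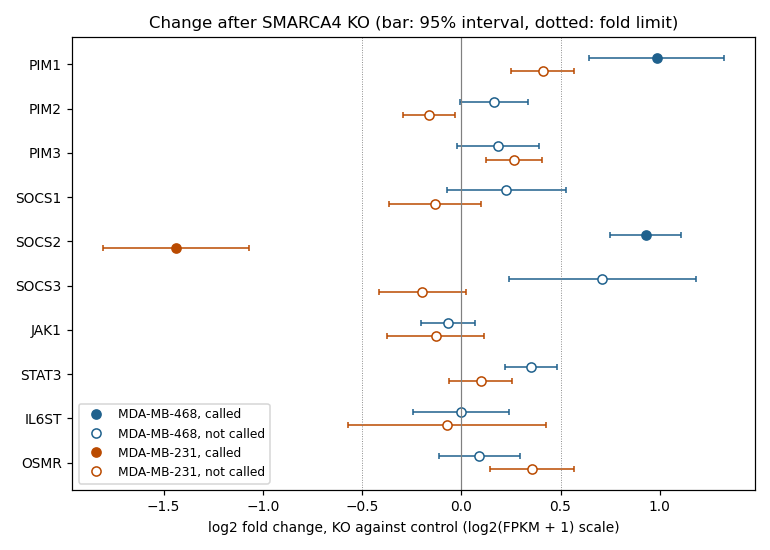
Log2 FC of the 10 genes, KO against control, on the log2(FPKM + 1) scale (horizontal axis; blue MDA-MB-468, orange MDA-MB-231; bars are 95% intervals from limma, filled points were called, dotted lines mark the fold limit of 0.5). Filled points are PIM1 (0.98) and SOCS2 (0.93) in MDA-MB-468 and SOCS2 (-1.44) in MDA-MB-231.

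The PIM1 call in MDA-MB-468 ended when any of 5 of the 6 samples was left out, namely control 1 (adjusted p = 0.083), control 2 (adjusted p = 0.12), control 3 (adjusted p = 0.057), KO 2 (adjusted p = 0.13) or KO 3 (adjusted p = 0.11), although the log2 FC stayed between 0.90 and 1.12. The difference of PIM1 between the lines likewise missed the threshold when 1 of 10 of the 12 samples was left out (all except control 3 and KO 1 of MDA-MB-468), with an adjusted p of at most 0.078.

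PIM2, another survival kinase of the family, had small differences of opposite sign in the lines. It had 5.72, 5.43 and 6.19 FPKM in control MDA-MB-468 and 6.85, 6.87 and 6.07 FPKM after KO, which overlapped (log2 FC 0.16, adjusted p = 0.22). In MDA-MB-231 it had 18.5, 16.6 and 18.0 FPKM in controls and 15.7, 15.5 and 15.9 FPKM after KO, which did not overlap (log2 FC -0.16, adjusted p = 0.11). The difference between these effects, 0.32 (SE 0.10), had an adjusted p of 0.046. With the replicate number as a block, that adjusted p was 0.094, with a common 75th percentile 0.075 and with an intensity trend 0.059, and it also missed the threshold when 1 of 9 of the 12 samples was left out (adjusted p up to 0.11). The 3 samples whose removal kept it were control 2 of MDA-MB-231 and control 3 and KO 3 of MDA-MB-468.

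PIM3, the third PIM kinase, had means from 26.8 to 34.5 FPKM over the 4 groups. In MDA-MB-468 its controls had 24.9, 26.04 and 29.6 FPKM and its KO samples 31.9, 28.5 and 31.4 FPKM, which overlapped (log2 FC 0.18, adjusted p = 0.24). In MDA-MB-231 the controls had 29.99, 26.9 and 28.8 FPKM and the KO samples 34.1, 35.7 and 33.6 FPKM, without overlap. That log2 FC of 0.26 (SE 0.06) had an adjusted p of 0.042 and was under the fold limit. The PIM3 effects were not shown to differ between the lines (-0.08, SE 0.13, adjusted p = 0.66).

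The receptors and the kinase that stand at the start of the pathway had no call in either line. OSMR, the oncostatin M receptor subunit, had 14.5, 16.5 and 17.1 FPKM in control and 16.5, 16.4 and 18.6 FPKM in KO MDA-MB-468 (log2 FC 0.09, 95% interval -0.11 to 0.29, adjusted p = 0.54). In MDA-MB-231 its KO samples, at 55.2, 51.8 and 47.7 FPKM, were all above the controls, at 36.6, 43.6 and 39.9 FPKM. This difference (log2 FC 0.36, SE 0.09) had an adjusted p of 0.054. IL6ST, the signal-transducing chain gp130 shared by the IL6 family, had means of 16.04 FPKM in control and 16.1 FPKM in KO MDA-MB-468, with a 95% interval of the log2 FC from -0.24 to 0.24. In control MDA-MB-231 it had 111, 96.4 and 65.9 FPKM, so that control 3 stood well below the other controls and within the reach of the KO samples at 90.7, 75.2 and 88.8 FPKM. Its interval there was wide, from -0.57 to 0.43 (adjusted p = 0.85). JAK1, the kinase most used by IL6 family receptors, had means of 54.9 ± 2.63 FPKM in control and 52.3 ± 1.81 FPKM in KO MDA-MB-468 (SD, n = 3 each), with an interval of the log2 FC from -0.20 to 0.07. In MDA-MB-231 it had 44.05 ± 5.70 and 40.0 ± 1.03 FPKM, with an interval from -0.38 to 0.12. The exons of JAK1 overlap RAVER2 and those of OSMR overlap RICTOR, each on the opposite strand, and IL6ST overlaps a long noncoding RNA on the opposite strand, so the same limit as for SOCS2 holds.

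STAT3, the transcription factor downstream of these receptors, had 88.1, 89.6 and 81.2 FPKM in control MDA-MB-468 and 111, 109 and 112 FPKM in KO samples. The groups did not overlap and the KO mean was 1.28 times the control mean. The log2 FC of 0.35 (SE 0.05, adjusted p = 0.035) was under the fold limit, and, once replicate numbers entered as a block, its adjusted p was 0.071. In MDA-MB-231 STAT3 had 48.7, 46.0 and 42.2 FPKM in controls and 47.6, 48.6 and 50.3 FPKM after KO, which overlapped (log2 FC 0.10, adjusted p = 0.35). The 2 effects were not shown to differ (0.25, SE 0.09, adjusted p = 0.095). These are RNA levels and say nothing of STAT3 phosphorylation.

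Over the 10 genes, a direct test of the difference between the lines' KO effects (adjusted p below 0.05, no fold limit) called 4 with a higher effect in MDA-MB-468 (PIM1, PIM2, SOCS2 and SOCS3) and 0 with a lower one. Of all rows, 7.91% were called higher and 6.83% lower in this test, 912 against 787 rows. That split depended on the scaling, since bringing the samples to a common 75th percentile of FPKM gave 671 higher and 941 lower.

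Control cells of the lines differed in 8 of the 10 genes. In the comparison of the 6 control samples, 1 of the 10 genes was called higher in MDA-MB-468 and 7 lower, beside 32.8% and 31.4% of all rows, and none of the 10 genes changed its call in any of the 12 alternative fits (11 for SOCS1 and SOCS2) at the same fold limit. Among the 7, SOCS1 and SOCS2 could remain in the filtered table only through MDA-MB-231, so their direction is a description. IL6ST had 91.0 ± 23.0 FPKM in control MDA-MB-231 and 16.04 ± 1.02 FPKM in control MDA-MB-468 (SD, n = 3 each), a ratio of 5.67 (log2 difference -2.40, SE 0.16, adjusted p = 2.8e-08). OSMR followed with a ratio of 2.497 (40.1 ± 3.49 against 16.04 ± 1.34 FPKM, adjusted p = 4.7e-08). Both receptor chains among the 10 genes were thus higher in the mesenchymal-like line, with no overlap between the lines. Other listed chains of this kind were divided in control cells. LIFR was higher in MDA-MB-231 (7.64 against 2.84 FPKM), but IL11RA (8.14 against 2.18 FPKM) and IL27RA (17.4 against 5.87 FPKM) were higher in MDA-MB-468.

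The 3 SOCS genes were also higher in control MDA-MB-231, whereas of 13 further inhibitors in the list below 5 were called higher in MDA-MB-468 and 4 lower. SOCS1 was 7.05-fold, SOCS2 7.66-fold and SOCS3 5.87-fold higher there in mean FPKM, with log2 differences of -1.97, -1.75 and -2.23 (adjusted p = 6.2e-09, 3.8e-08 and 3.1e-08). Rows with a low mean or SD of FPKM had been removed. Over control and KO MDA-MB-468, SOCS1 was at 0.75 to 1.61 FPKM and SOCS2 at 0.42 to 2.07 FPKM. The SOCS1 and SOCS2 rows could therefore remain only through MDA-MB-231, and their direction is a description. In control MDA-MB-231 PIM2 was 3.06-fold higher (log2 difference -1.46, adjusted p = 1.0e-09) and PIM1 2.19-fold higher (-1.07, adjusted p = 1.8e-06). STAT3 was the exception, with 86.3 ± 4.47 FPKM in control MDA-MB-468 and 45.6 ± 3.26 FPKM in control MDA-MB-231, 1.89-fold higher in MDA-MB-468 (log2 difference 0.91, SE 0.07, adjusted p = 7.2e-08). JAK1 was higher in MDA-MB-468 by 0.32 on the log2 scale (SE 0.09, adjusted p = 0.0043), under the fold limit, and PIM3 did not pass the test (-0.09, 95% interval -0.26 to 0.08, adjusted p = 0.30).

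**Figure D3:**
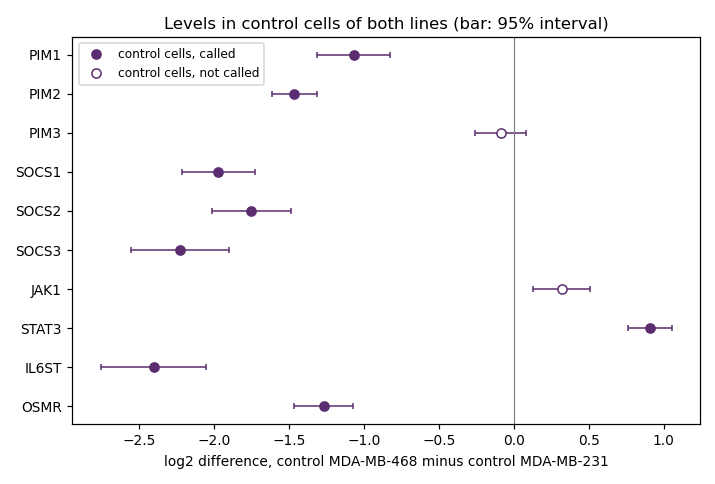
Log2 difference of log2(FPKM + 1) between control MDA-MB-468 and control MDA-MB-231 for the 10 genes (points; bars are 95% intervals from limma, n = 3 per line; filled points were called). STAT3 (0.91) is the filled point to the right of 0, and 7 filled points lie to the left, from PIM1 (-1.07) to IL6ST (-2.40).

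On the FPKM scale, which accounts for transcript length, the order of the 10 genes in control MDA-MB-468 ran from STAT3 (86.3) and JAK1 (54.9) through PIM3 (26.8), IL6ST and OSMR (16.04 each) and PIM1 (9.61) to PIM2 (5.78), SOCS3 (3.01), SOCS1 (0.93) and SOCS2 (0.56). IL6ST and OSMR did not differ beyond their spread. In control MDA-MB-231 the order was IL6ST (91.0), STAT3 (45.6), JAK1 (44.05), OSMR (40.1), PIM3 (28.5), PIM1 (21.05), PIM2 and SOCS3 (17.7 each), SOCS1 (6.56) and SOCS2 (4.31). There STAT3, JAK1 and OSMR overlapped, as did PIM2 and SOCS3.

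The wider pathway was read from a list of 112 further genes, of which 72 were in the table. In MDA-MB-468, 2 of the 72 were called higher and 0 lower, beside 1.33% and 0.815% of all rows. Both were listed targets, and the median log2 FC of the 72 was 0.034. CDKN1A, among them, had already been reported by the study as raised in KO MDA-MB-468. At an unadjusted limma p below 0.05 there were 12 of the 72 (16.7%), beside 25.1% of all rows. CDKN1A, which encodes the cell cycle inhibitor p21, had 15.4, 13.2 and 13.3 FPKM in controls and 25.5, 25.7 and 26.3 FPKM after KO (log2 FC 0.85, SE 0.07, adjusted p = 0.014). ICAM1, an adhesion molecule, had 28.6, 31.3 and 28.6 FPKM in controls and 50.3, 40.2 and 47.1 FPKM after KO (log2 FC 0.62, adjusted p = 0.035). Neither gene's groups overlapped. The ICAM1 call ended with the replicate number as a block (adjusted p = 0.074) and without any 1 sample except KO 1 (adjusted p up to 0.12), and the CDKN1A call ended without control 2, control 3, KO 2 or KO 3 (adjusted p = 0.081, 0.057, 0.075 and 0.061).

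In MDA-MB-231, 2 of the 72 listed genes were called higher and 2 lower, beside 2.39% and 1.31% of all rows. Their median log2 FC was -0.020. At an unadjusted limma p below 0.05 there were 28 of the 72 (38.9%), beside 31.2% of all rows. Of 9 measured ligands, 0 were called higher and 2 lower. IL11, a cytokine of the IL6 family, fell from 103, 92.2 and 87.6 FPKM in controls to 13.5, 12.9 and 15.6 FPKM after KO (log2 FC -2.67, SE 0.09, adjusted p = 0.0014). CSF2, which encodes the growth factor GM-CSF, fell from 155, 119 and 123 FPKM to 95.1, 70.7 and 70.0 FPKM (log2 FC -0.75, adjusted p = 0.042), a call that ended without any 1 of the 6 samples (adjusted p from 0.055 to 0.13), with a common 75th percentile (adjusted p = 0.051) and with quantile scaling (adjusted p = 0.058). Of 16 receptors 1 was called higher, IL11RA, the receptor chain for IL11 (log2 FC 0.71, SE 0.07, adjusted p = 0.0083), and 0 lower. Among 17 targets the call was LCN2, a secreted iron-binding protein, which rose from 17.5, 32.5 and 33.5 FPKM to 150.2, 139 and 91.0 FPKM (log2 FC 2.17, SE 0.31, adjusted p = 0.018) and lost its call without KO 1 (adjusted p = 0.067) or KO 2 (adjusted p = 0.082). In both lines 0 of the 2 kinases, 5 transcription factors, 13 inhibitors and 10 PIM substrates in the table were called by limma. At an unadjusted p below 0.05, the 13 inhibitors gave 2 genes in MDA-MB-468 and 7 in the other line, beside the 25.1% and 31.2% of all rows.

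**Figure D4:**
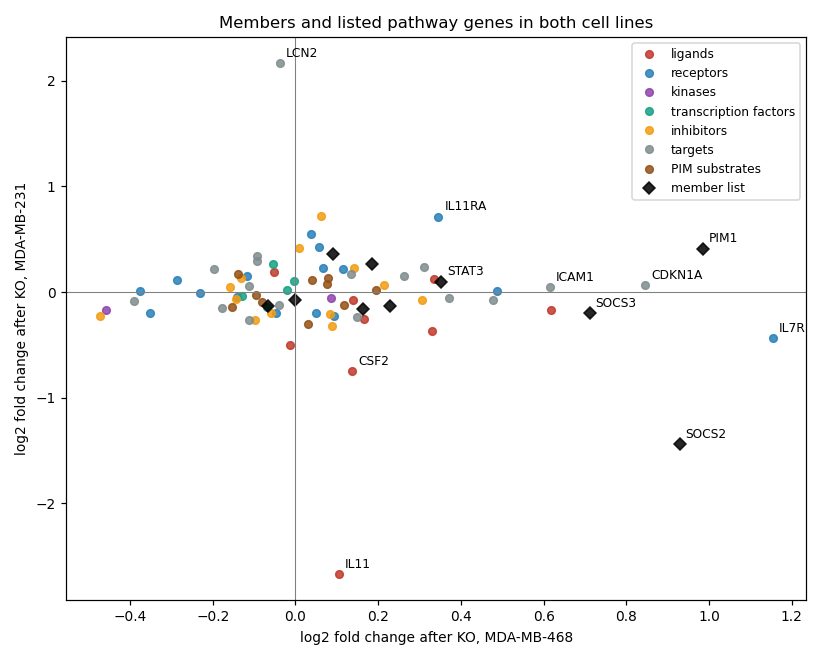
Log2 FC after KO in MDA-MB-468 (horizontal axis) against that in MDA-MB-231 (vertical axis) for the 10 genes (black diamonds) and the 72 listed pathway genes (circles coloured by role). Most points lie near 0 on both axes, while SOCS2 (0.93 and -1.44) stands in the lower right quadrant, IL11 at the bottom (-2.67 in MDA-MB-231) and LCN2 at the top (2.17 in MDA-MB-231).

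In control cells 28 of the 72 listed genes were called higher in MDA-MB-468 and 28 lower, beside 32.8% and 31.4% of all rows. Among the 9 ligands 8 were lower in MDA-MB-468 and 1 higher. IL6 had a mean of 0.34 FPKM there against 90.9 FPKM in MDA-MB-231, and IL11 0.55 against 94.4 FPKM. Rows with a low mean or SD of FPKM had been removed, and 9 of 25 listed ligands remained. IL6, IL11, CSF2, CSF3 and CTF1 were near 0 in MDA-MB-468 and could remain only through MDA-MB-231. Their direction was therefore fixed by this filter. Among the 16 receptors 11 were higher in MDA-MB-468 and 4 lower, with IL11RA at 8.14 against 2.18 FPKM and LIFR, the receptor for LIF, at 2.84 against 7.64 FPKM. The filter acted on receptors too, of which 16 of 34 listed ones remained. The control means of CSF3R and IL20RA were 1144 and 32.0 times higher in MDA-MB-468. The part of the filter in the receptor split was not tested.

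The genes whose levels were most like PIM1 across the 12 samples, once each line's mean was taken off, were TIMP3, an inhibitor of matrix metalloproteinases, TNFSF9, a ligand of the TNF family, and KLK10, a kallikrein protease (Pearson r = 0.97 for each, among rows with a mean log2 value of at least 2). The step from control to KO, which the samples of both lines share, was not taken off in this measure. Since these genes were chosen for a pattern that holds this step, their KO differences are a description, with no test. In MDA-MB-468 the log2 FC was 1.68 for TNFSF9 and 1.45 for TIMP3, against 0.71 and 0.45 in MDA-MB-231. KLK10 had 0.92 in MDA-MB-468 and was at or below 0.44 FPKM in every MDA-MB-231 sample. Among the 10 genes, STAT3 (r = 0.81) and PIM3 (0.74) were nearest to PIM1, followed by SOCS3 (0.63) and OSMR (0.59), while SOCS2 (0.14), IL6ST (0.014) and JAK1 (-0.42) were not alike in this measure.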

How the data were processed

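RNA-seq libraries were made with a stranded mRNA kit, and per the study's methods reads were trimmed with Trimmomatic, aligned to hg19 with STAR and quantified with RSEM. The authors deposited log2(FPKM + 1) values for 12 samples; rows with a low mean or a low SD of FPKM had been removed (the lowest left were 1.07 and 1.00). Of the values, 99.8% gave a FPKM of 2 decimals within 0.0001, so read counts could not be recovered and depth is unknown. Groups came from the sample titles. The annotation and the strand setting of counting are not given in the sources used here. 0 columns were left unused.

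KO and control were compared within each line (6 samples) with limma 3.58.1 in R 4.3.3. The difference of KO effects and the control lines used 1 fit of 4 groups (12 samples). Two-sided moderated tests were adjusted by Benjamini-Hochberg over 11529 rows. FPKM are 2 to the power of the value, minus the pseudocount of 1. Each fit was tested on simulated data. The 10 genes and all lists were chosen with earlier results of these data known. Named were the 10 genes, SMARCA4, listed pathway genes called in a line (at most 6 by fold change), the 3 genes most like PIM1 and, after their values were seen, single listed genes and line markers. Overlapping genes were taken from GENCODE 44 on GRCh37. Promoter sequences are not reported here.

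Whether title numbers pair the MDA-MB-468 samples is not settled. Correlations of same-numbered deviations were 0.25, 0.16 and 0.12, but control 3 with KO 2 gave 0.13. The p numbers in the labels pair these samples otherwise (correlations -0.23 and 0.029). The fits given used no pairing. The alternatives were log2(FPKM + 0.1), a mean log2 of at least 2, 75th percentile and quantile scaling, an intensity trend, 1 fit of all samples, replicate blocks, other thresholds and leaving out each sample.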

Additional observations from a re-analysis of the deposited data

Results flagged for a closer look

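For 9 genes among the 10 followed here, SMARCA4 and the listed pathway genes called in a line, the KO effect in MDA-MB-468 differed from that in MDA-MB-231 by limma's interaction test (adjusted p below 0.05). The differences are KO effect in MDA-MB-468 minus KO effect in MDA-MB-231 on the log2 scale. Of all rows, 7.91% were called higher and 6.83% lower in this test.

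Among the PIM and SOCS genes, the difference was 0.57 for PIM1 (adjusted p = 0.033), 0.32 for PIM2 (adjusted p = 0.046), 2.37 for SOCS2 (adjusted p = 2.7e-05) and 0.91 for SOCS3 (adjusted p = 0.019). For SOCS2 the 2 effects had opposite signs and each was called within its line. For PIM1 both effects were above 0, and for PIM2 and SOCS3 neither effect was called within a line.

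The targeted gene SMARCA4 differed by 0.41 (adjusted p = 0.027), with the larger relative fall in MDA-MB-231. Among listed pathway genes, CDKN1A differed by 0.78 (adjusted p = 0.0042), IL11 by 2.78 (adjusted p = 1.1e-05), LCN2 by -2.21 (adjusted p = 0.0017) and CSF2 by 0.89 (adjusted p = 0.019). These listed genes were named because a KO effect was called in a line of the same samples. That effect is a part of the difference tested, so their differences are a description. IL11 and CSF2 were below 1 FPKM in every MDA-MB-468 sample, and the CSF2 difference missed the threshold on the log2(FPKM + 0.1) scale (adjusted p = 0.21). Of the genes most like PIM1, TIMP3 differed by 1.001 and TNFSF9 by 0.97, given as a description because the choice of these genes used the same samples.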

How the results depend on the processing

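Counts of called genes were the values that depended most on the settings. In MDA-MB-468 the 2 called members became 1 with a mean log2 of at least 2 (SOCS1 and SOCS2 then drop out), 0 with the p number in the labels as a replicate block (2 pairs) and 0 with a log2 FC beyond 1, and ranged from 0 to 2 (4 to 6 at an unadjusted p below 0.05) with limma when 1 sample was left out. The 2 listed pathway genes called there became 4 in 1 fit of all 12 samples, 1 with the replicate block, 0 with the p number block, 0 beyond a log2 FC of 1, and 0 to 5 with 1 sample left out. In MDA-MB-231 the 1 called member became 0 with the low-level filter, 0 with the replicate block (SOCS2 adjusted p = 0.071), 3 by adjusted p alone, and 0 to 1 with 1 sample left out. The 4 listed genes became 0, 2 (log2 FC beyond 1), 9 (adjusted p alone) and 2 to 3. Of all rows, 247 were called in MDA-MB-468 and 426 in the other line, MDA-MB-231; the replicate block gave 241 and 0, the p number block 0 in MDA-MB-468 (2477 at an unadjusted p below 0.05), and leaving out 1 sample 0 to 474 and 99 to 311. The 1 fit of all samples called 537 in MDA-MB-468, a log2 FC beyond 1 left 53 and 85, and adjusted p alone gave 432 and 1248. The title numbers did not pair the MDA-MB-231 samples (correlations -0.05, 0.07 and -0.11). For the difference of KO effects, 2 to 4 members and 5 to 17 listed genes (9 in the fit given) were called with 1 sample left out. In the control lines the counts were 8 members throughout and 54 to 58 listed genes.

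Signs turned for several effects that were not called. IL6ST in MDA-MB-468 became 0.0012 with quantile scaling and 0.088 with the p number block, and ranged from -0.087 to 0.076 with 1 sample left out. IL11 in MDA-MB-468 became -0.015 with quantile scaling and ranged from -0.0033 to 0.17, and LCN2 there ranged from -0.10 to 0.013. In MDA-MB-231 IL6ST ranged from -0.29 to 0.086, CDKN1A from -0.0047 to 0.17 and ICAM1 from -0.10 to 0.24. The difference of KO effects ranged from -0.014 to 0.17 for JAK1 and from -0.087 to 0.28 for IL6ST, and went from 0.57 to -0.73 for KLK10 on the log2(FPKM + 0.1) scale. The cause of these changes was not tested.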

Other observations

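Further listed pathway genes, picked after their values were seen, had KO effects that differed between the lines. In limma's test of this difference, 7 of the 72 listed genes were called higher in MDA-MB-468 and 2 lower. Of all rows, 7.91% were called higher and 6.83% lower, so these genes do not set the list apart. CLCF1, an IL6 family ligand, had 3.89 ± 0.59 FPKM in control and 6.52 ± 1.12 FPKM in KO MDA-MB-468 (SD, n = 3 each) and 22.2 ± 0.96 and 19.6 ± 0.59 FPKM in MDA-MB-231. It was called in neither line, and the difference of the effects was 0.78 on the log2 scale (adjusted p = 0.0088). IL7R, the receptor chain for IL7, had 0.77 ± 0.38 and 3.15 ± 1.70 FPKM in MDA-MB-468 and 5.80 ± 0.66 and 4.04 ± 0.71 FPKM in MDA-MB-231, with a difference of 1.59 (adjusted p = 0.019). The inhibitors SH2B3 (0.41, adjusted p = 0.028) and SOCS5 (0.38, adjusted p = 0.039) and the hypoxia factor HIF1A (-0.43, adjusted p = 0.048) completed the group.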
